A study of Mus musculus with 4 samples.

Results

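The enzymes described here are the cytochromes P450 (Cyp), glutathione S-transferases (Gst), UDP-glycosyltransferases (Ugt), alcohol dehydrogenases (Adh) and aldehyde dehydrogenases (Aldh) measured in the mouse dentate gyrus. They were taken by gene symbol, from probe sets annotated with a single symbol of these families, with the sterol synthesis gene Cyp51 left out. This gave 71 genes with 95 probe sets, of 8251 genes on the array with a single symbol. The family counts were 39 Cyp, 15 Gst, 3 Ugt, 4 Adh and 10 Aldh genes.

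All 4 samples were total RNA from the dentate gyrus, the granule cell field of the hippocampus, and the mice were C57BL/6J males, young, which an experimenter handled and which got no other treatment. They were taken 1, 2, 4 and 6 h after a parallel set of experimental mice had its last shock, with 1 array at each hour. The number of mice behind a sample is not given in the sources used here, and the shocked mice were not analysed. The design asks how far the enzymes differ between the hours in handled controls, and since an hour is 1 array, the hour and the array cannot be told apart. Values are array intensities in arbitrary units and are always given in the order 1, 2, 4 and 6 h.

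Detoxification runs in phases. Cytochromes P450, anchored in membranes and fed with electrons from NADPH, oxidise drugs, sterols, fatty acids and retinoids. Alcohol and aldehyde dehydrogenases carry alcohols through aldehydes to acids, among them retinol to retinoic acid and the reactive aldehydes left by lipid peroxidation, and the transferases then couple glutathione or sugars to the product so that it can be exported. Most of these genes are known best from the liver, while in brain the mu and pi class transferases are mainly products of glia, Cyp7b1 is known from the hippocampus and Ugt8a makes the galactolipids of myelin.

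Promoters of 3 members are shown because the results below return to them: of the members past the filter used below, Adh7 had the widest range over the hours, and Gstm1 and Gstm5 are the mu class genes with the highest signal. Each run is the RefSeq window of GRCm38.p6 from 250 bases before to 50 bases after the annotated start, 5′ to 3′ along the gene. Capitals mark matches on either strand to GCGTG (the core of the dioxin response element bound by the aryl hydrocarbon receptor), to TGACNNNGC (the antioxidant response element) or to TATAAA (the core promoter element named after it). Each match is a match of letters and not a measured site.
Adh7 (chr3:138217523-138217822, plus strand): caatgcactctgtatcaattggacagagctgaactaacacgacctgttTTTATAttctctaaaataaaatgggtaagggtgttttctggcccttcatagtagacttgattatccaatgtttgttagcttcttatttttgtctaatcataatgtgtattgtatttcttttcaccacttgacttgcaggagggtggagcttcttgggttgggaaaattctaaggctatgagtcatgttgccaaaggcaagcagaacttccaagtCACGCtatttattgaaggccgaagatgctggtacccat
Gstm1 (chr3:108017769-108018068, minus strand): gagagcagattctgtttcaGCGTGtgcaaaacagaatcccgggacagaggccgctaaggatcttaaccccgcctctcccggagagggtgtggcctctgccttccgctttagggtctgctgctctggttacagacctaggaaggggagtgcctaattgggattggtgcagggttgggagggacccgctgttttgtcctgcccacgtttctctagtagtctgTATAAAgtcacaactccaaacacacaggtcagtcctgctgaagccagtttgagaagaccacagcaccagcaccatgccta
Gstm5 (chr3:107895604-107895903, plus strand): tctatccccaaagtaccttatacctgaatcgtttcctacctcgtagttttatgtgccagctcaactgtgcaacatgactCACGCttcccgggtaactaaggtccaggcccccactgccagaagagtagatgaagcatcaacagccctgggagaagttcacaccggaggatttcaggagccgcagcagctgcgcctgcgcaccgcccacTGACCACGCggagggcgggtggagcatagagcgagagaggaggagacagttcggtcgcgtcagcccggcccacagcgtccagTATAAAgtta
The Adh7 window holds 1 GCGTG match and 1 TATAAA match, which reads on the opposite strand and far ahead of the start. In Gstm1, shown at 1 of its 2 listed starts, the TATAAA match begins at position -30, counted back from the start. In Gstm5 the TGACNNNGC match overlaps 1 of the 2 GCGTG matches, and the TATAAA match lies after the start.

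Promoter windows were found for 57 of the 71 genes, with 66 starts between them. TATAAA occurred in 33.3% of these 66 windows (22) and in 13.6% of all 32851 windows in the table. GCGTG was in 25.8% of the member windows against 32.4% of all, and TGACNNNGC in 9.09% against 12.4%. In the 26 windows of members past the filter the shares were 34.6% for TATAAA, 42.3% for GCGTG and 7.69% for TGACNNNGC. Members also lie close together in the genome: with neighbours no more than 1 Mb apart, 47 of the 71 genes fell into 14 clusters, the fullest of which holds 7 Cyp2 genes on chromosome 7. Neighbours can share sequence, and probe set names can mark this. By the array maker's naming, _f_ and _s_ mark probe sets that can match several family members or transcripts, and 21 of the 95 member probe sets are of these kinds. Among the sets used for the 27 members past the filter 10 are. The share of such names over the whole array was not counted.

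Most of the enzymes were dim. A gene was taken as measured when the mean log2 intensity of its brightest probe set over the 4 arrays reached the 40th percentile of all genes, an intensity of 170.4. By that filter 27 of 71 members (38%) were measured, where the filter keeps 60% of all genes by its construction. The share differed by family: 10 of 39 Cyp genes passed, 10 of 15 Gst genes, 0 of 3 Ugt genes, 2 of 4 Adh genes and 5 of 10 Aldh genes. Within the Cyp genes, 5 of 24 of the drug and arachidonate metabolising families Cyp1 to Cyp3 passed, 3 of 6 of the fatty acid hydroxylases Cyp4 and 2 of 9 of the sterol, steroid, retinoid and vitamin D enzymes from Cyp7 upwards. Another 8 members were under the array floor of 38.3 (the 20th percentile of all intensities) at every hour, 5 of them in Cyp1 to Cyp3. Liver transcripts were low too: of 9 liver markers on the array, 0 passed the filter, and their summed intensity ran from 479.7 to 605.9 over the hours. The tissue's own markers were present, with 6 of 7 granule cell genes, 11 of 12 astrocyte genes and 7 of 8 oligodendrocyte genes past the filter.

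**Figure D1:**
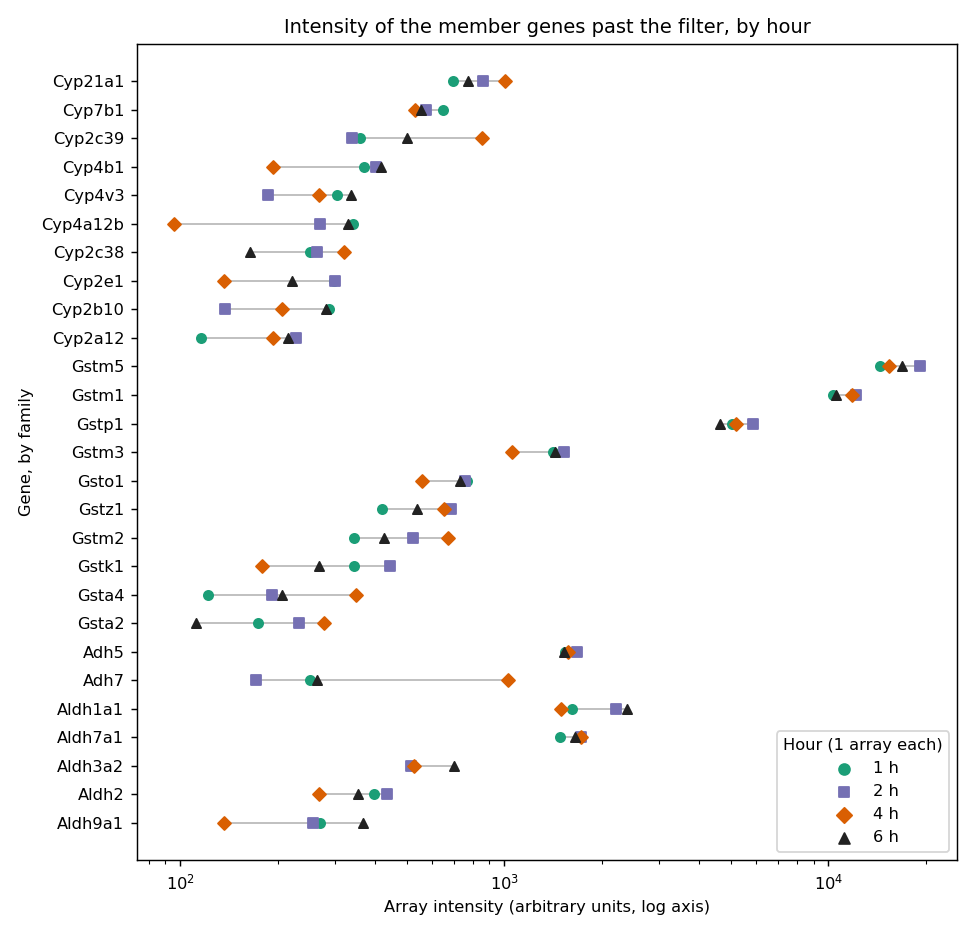
Array intensity (horizontal log axis, arbitrary units) of the 27 member genes past the filter, grouped by family from Cyp at the top to Aldh at the bottom, with 1 symbol per hour and a grey line over the range. The glutathione transferases Gstm5, Gstm1 and Gstp1 and the dehydrogenases Adh5 and Aldh7a1 have their 4 symbols close together, while the 4 h symbol stands at 1 end of the line in Adh7, Cyp4a12b and Aldh9a1.

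Each probe set has its own response, so an intensity does not rank genes by their RNA, and where genes are called dim or bright below, only the signal is meant. What can be compared is each gene with itself over the hours, and here the 27 members past the filter ran from 1.10-fold to 5.99-fold.

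The mu class transferase Gstm5, an enzyme of brain and testis that couples glutathione to electrophiles, had intensities of 14398, 19193, 15346 and 16869.6. Its mean was 16452 ± 2092 (SD, n = 4), and the highest hour was 1.33-fold above the lowest. Gstm1, the common mu class enzyme of astrocytes, read 10331, 12163, 11814 and 10535, a range of 1.18-fold. Both were highest at 2 h and lowest at 1 h. Gstp1, the pi class enzyme, read 5031, 5862, 5172 and 4621 (mean 5171 ± 516, SD, n = 4), also highest at 2 h. The omega class enzyme Gsto1, which also reduces dehydroascorbate, read 769, 756, 559 and 731, with the 4 h array below 3 close values. Gstz1, an isomerase of tyrosine breakdown, was highest at 2 h as well and spanned 1.63-fold.

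Gstm3 of the mu class read 1412, 1534, 1053 and 1433 (1.46-fold), lowest at 4 h. Gstm2 was highest at 4 h and spanned 1.96-fold. Gstk1, the kappa class enzyme of mitochondria and peroxisomes, read 344.5, 445, 179 and 269 (2.49-fold), again lowest at 4 h. The alpha class went the other way at that hour: Gsta4, which clears the lipid peroxidation product hydroxynonenal, read 122, 192, 349 and 206 (2.87-fold), and Gsta2 read 174, 232, 279 and 112 (2.48-fold). Both alpha class genes peaked on the 4 h array, while their lowest hours differed. Over the 10 transferases past the filter, 6 were highest at 2 h, 3 at 4 h and 1 at 1 h, and 5 were lowest at 1 h.

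Among the dehydrogenases, Adh5, the glutathione-dependent formaldehyde dehydrogenase that also reduces S-nitrosoglutathione, was the steadiest of the 27. It read 1537, 1683, 1574 and 1526, with a mean of 1579.8 ± 71.7 (SD, n = 4) and a range of 1.10-fold. Its neighbour in the same gene cluster, the retinol-oxidising Adh7, varied most of the 27. Adh7 read 251, 171.5, 1027 and 265, with 4 h 4.56-fold over the average of the rest on the log2 scale and 5.99-fold over 2 h. It was the 1 member whose 4 h value was more than 2-fold above each other hour, as in 18 of the 4951 genes past the filter (0.364%). Adh1 and Adh4 of the same cluster stayed under the filter. Adh4 read 179, 44.3, 61.7 and 40.5, so 1 hour alone exceeded the filter's intensity.

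Aldehyde dehydrogenases split in the same manner. Aldh7a1, an enzyme of lysine breakdown, read 1485, 1725, 1724 and 1656, within 1.16-fold. Aldh1a1, which makes retinoic acid, read 1617, 2206, 1495 and 2384.5 (1.59-fold), with 2 and 6 h above 1 and 4 h. Aldh3a2, which oxidises fatty aldehydes, read 523.5, 516, 528 and 700.3, with 3 hours almost equal and 6 h above them. The mitochondrial acetaldehyde enzyme Aldh2 read 396, 435, 269 and 355, and Aldh9a1, which oxidises aminobutyraldehydes, read 269.8, 256, 137 and 367 (2.68-fold). Both had their lowest value at 4 h, and Aldh9a1 lay 2.15-fold under its average at the rest.

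The range over the hours had a median of 2.03-fold in the 10 cytochromes P450 past the filter, where it was 1.54-fold in the 10 transferases and 1.47-fold in all genes past the filter. Of the sterol and steroid enzymes from Cyp7 upwards 2 passed. Cyp7b1, a hydroxylase of oxysterols and of the neurosteroid dehydroepiandrosterone, read 648, 574, 530.3 and 555 (mean 577 ± 50.8, SD, n = 4), a range of 1.22-fold. Cyp21a1, a steroid hydroxylase best known from the adrenal cortex, read 697, 862, 1008 and 772, a range of 1.45-fold, measured by a probe set of the shared _s_ kind.

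Drug and arachidonate metabolising P450s past the filter had a median range of 2.10-fold, wider than the 1.33-fold of the 2 from Cyp7 upwards. The fatty acid hydroxylases Cyp4 had 2.14-fold. Mean intensities of the drug and arachidonate metabolising genes, from 188 to 513, were under those of Cyp7b1 and Cyp21a1 (577 and 835). Among all genes dimmer ones spanned over 2-fold more often, as given below. Cyp2c39, a retinoic acid hydroxylase in mouse liver, read 360.1, 339, 852 and 502, with 4 h 2.16-fold over the average of the rest. Its cluster neighbour Cyp2c38, on a shared _f_ probe set, was also highest at 4 h, with 251, 264, 321 and 165. A further neighbour, Cyp2c29, lay under the filter and read 73.4, 90.6, 185 and 177. These 3 had their highest value at 4 h, but the neighbour Cyp2c70, also under the filter, was lowest there (81.6, 52.8, 26.7 and 83.3). Cyp2e1, the ethanol-oxidising P450, was low at that hour, with 299, 299.6, 137 and 222. Cyp2b10, which phenobarbital induces in liver, read 288, 137, 206 and 282, lowest at 2 h. Cyp2a12, a liver steroid hydroxylase, was lowest at 1 h and spanned 1.96-fold.

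Among the fatty acid hydroxylases, Cyp4a12b read 341, 269, 96 and 331. Its 4 h value was 3.25-fold under the average of the rest. It was the 1 member whose 4 h value was more than 2-fold below each other hour, as in 48 of the 4951 genes (0.97%). Its cluster neighbours Cyp4a14 (178.5, 67.7, 272 and 23.7) and Cyp4a10 (7.3, 41.7, 93.7 and 27.1), both under the filter, were highest at 4 h. Cyp4b1, a neighbour in the same cluster and past the filter, was lowest at 4 h, as Cyp4a12b was. It read 369, 401, 194 and 415, with 3 close values and a low 4 h value. Cyp4v3, the mouse counterpart of a human P450 of the eye, read 306, 187, 268 and 336, lowest at 2 h.

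Of the 44 members under the filter, 6 exceeded its intensity of 170.4 on a single array. Besides Adh4 these were Aldh3a1 (74.2, 298, 68.8 and 61.9), an aldehyde dehydrogenase of cornea and stomach, and Cyp11a1 (29.3, 176, 72.2 and 52.2), which starts steroid synthesis by cutting the side chain of cholesterol. The others were Cyp2d9 (141, 63.8, 54.0 and 368), Cyp2f2 (142, 121, 256 and 124), a P450 of lung airway cells, and Cyp4f13 (191, 26.1, 49.0 and 46.7). The hour of that single high value differed between them: 1 h for Adh4 and Cyp4f13, 2 h for Aldh3a1 and Cyp11a1, 4 h for Cyp2f2 and 6 h for Cyp2d9. Ugt8a, the myelin galactolipid enzyme, read 68.1, 87.1, 38.4 and 30.9 and was not measured by the filter. The remaining means under the filter lay between 10.6 and 160.3.

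No member had a trend with the hour that passed the test. A slope of log2 intensity on the hour was fitted with limma over all 4951 genes past the filter, and 0 of the 27 members were called at a Benjamini-Hochberg adjusted p under 0.05. The background was the same, with 0 of 4951 genes (0%) called. At an unadjusted p under 0.05 there were 0 members and 100 genes in all (2.02%). The smallest unadjusted p of a member was 0.124, for Cyp2c39, with a slope of 0.16 ± 0.10 log2 per h (SE, n = 4) and a limma adjusted p of 1.00. Slopes were positive in 14 members and negative in 13, and their median was 0.01 log2 per h, against 0.00 over all genes past the filter. Not 1 member had values moving in 1 direction at every step, where 2.65% of all genes were higher at every step and 2.4% lower.

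Without a test, 10 of the 27 members (37.0%) had a highest hour over 2-fold above their lowest, against 15% of all genes past the filter (741 of 4951). They were the Cyp genes Cyp2b10, Cyp2c39, Cyp2e1, Cyp4a12b and Cyp4b1, the transferases Gsta2, Gsta4 and Gstk1, and the dehydrogenases Adh7 and Aldh9a1. Adh7 alone spanned over 4-fold, as did 1.86% of all genes. In 3 of the 27 members (Aldh3a2, Cyp4b1 and Gsto1) 1 array lay apart from 3 close values by Dixon's rule at 95%. This was a larger share than the 5.7% of all genes past the filter (282 of 4951). All 10 members over 2-fold lay in the dimmer part of the genes past the filter, with mean intensities from 199 to 513. Split at the median of all genes past the filter (an intensity of 597), 10 of 18 members below it and 0 of 9 members above it spanned over 2-fold, and for all genes the shares were 25.1% below and 4.85% above. This split was chosen after the values were seen.

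**Figure D2:**
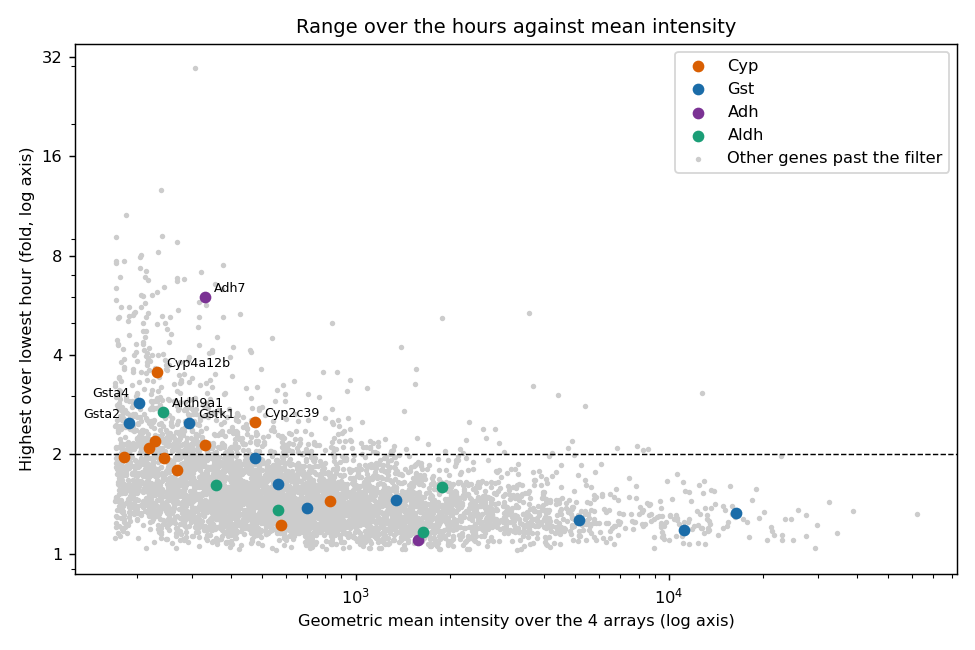
Highest over lowest hour (fold, vertical log axis) against the geometric mean intensity over the 4 arrays (horizontal log axis) for all 4951 genes past the filter, with the 27 members in colour by family and 7 of the 10 members over 2-fold named. Members above the dashed 2-fold line are all at the dim end, and the 9 members of higher intensity lie between 1.10-fold and 1.59-fold.

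The 4 h array set most of these ranges. In 9 of the 10 members over 2-fold, the exception being Cyp2b10, the highest or the lowest value was at 4 h, as it was in 68.4% of the 741 genes over 2-fold. High at 4 h were Adh7, Cyp2c39, Gsta2 and Gsta4, and low at 4 h were Aldh9a1, Cyp2e1, Cyp4a12b, Cyp4b1 and Gstk1. With the 4 h array left out and the same genes kept, 2 members (7.41%) remained over 2-fold, against 7.61% of all genes. These were Cyp2b10 at 2.10-fold and Gsta2 at 2.07-fold, while Adh7 spanned 1.55-fold and Cyp4a12b 1.27-fold. With the filter applied again to the other 3 arrays, Gsta2 no longer passed it and 1 member remained (3.85% of 26), against 7.41% of all genes. Leaving out the 1, 2 or 6 h array left 9, 8 and 8 members over 2-fold, between 29.6% and 33.3%, against 10.4% to 10.7% of all genes. In these counts the members' share stood above that of all genes in each set that held the 4 h array and not in the set without it.

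**Figure D3:**
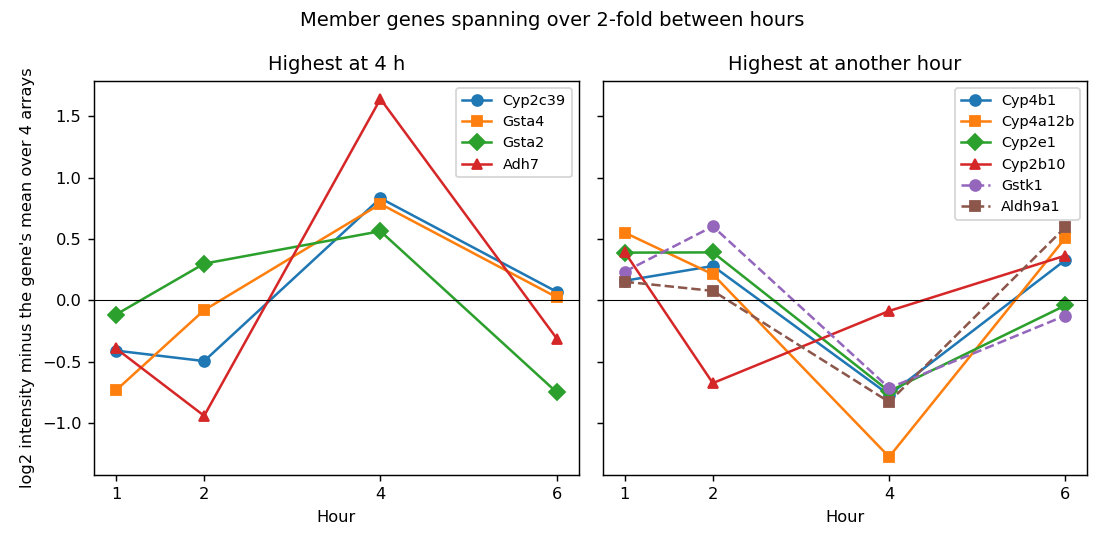
log2 intensity at each hour minus the gene's mean over the 4 arrays (vertical axis) against the hour (horizontal axis) for the 10 members that spanned over 2-fold, at left the 4 highest at 4 h and at right the other 6. Lines join values of single arrays. Of the 6 genes at right, 5 have their lowest point at 4 h, and Cyp2b10 has it at 2 h.

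**Figure D4:**
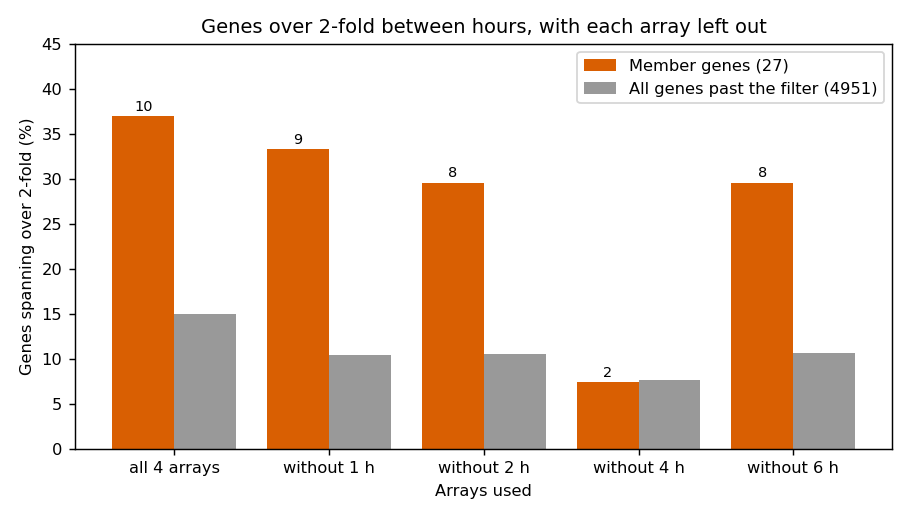
Percent of genes spanning over 2-fold between hours (vertical axis) for the 27 members and for all 4951 genes past the filter, with all 4 arrays and with each array left out in turn, the same genes being kept. Numbers over the bars count members. The member share is 37.0% with all arrays and 7.41% without the 4 h array, where the share of all genes is 7.61%.

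The 4 h array also stood apart in other ways. Its median intensity over all probe sets was 213, against 184.8 to 187.3 at the other hours, and it held the highest value of 31.4% and the lowest of 29.2% of all genes past the filter. The choroid plexus carrier transthyretin (Ttr) read 81.3, 234, 2408 and 191. Of the 6 choroid plexus markers on the array 1 passed the filter, and their summed intensity was 3072 at 4 h, with Ttr in it, and between 328 and 662 at the other hours. Of the 5 under the filter Kl, Folr1, F5 and Slc4a5 were highest at 4 h and Aqp1 at 2 h (36.6, 139.0, 113.1 and 99.1). Summed fibroblast and meningeal markers were 5824, 7511, 7518 and 6284, and endothelial and mural markers 3465, 3567, 3795 and 2659. The sums were 70140, 68082, 63953 and 69702 for astrocyte markers and 7985, 8542, 7627 and 8569 for microglia markers, both lowest at 4 h. They were 12587, 13134, 13522 and 13999 for oligodendrocyte markers, 41383, 38866, 43072 and 39436 for granule cell markers and 4550, 2714, 3193 and 3914 for blood markers. Most of the granule cell sum came from 1 gene, Ncdn (35841, 32035, 37162 and 33423). Of the 6 granule cell genes past the filter 3 were highest at 2 h, 1 at 4 h and 2 at 6 h. The part of these cells in the 4 h values of Adh7 and the other members was not tested. In bulk tissue fewer cells of a type and less RNA per cell cannot be told apart.

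Counting hours over the members gave a second pattern. The highest value lay at 2 h in 11 of 27 members (40.7%), against 23.2% of all genes, at 4 h in 7 (25.9%, against 31.4%), at 6 h in 5 (18.5%, against 22.3%) and at 1 h in 4 (14.8%, against 23.1%). The lowest lay at 4 h in 10 members (37.0%, against 29.2%) and at 1 h in 8 (29.6%, against 24.5%). At 2 h the median member lay 0.16 log2 above its average at the rest, where the median of all genes was 0.01. At 1, 4 and 6 h the member medians were -0.05, -0.01 and 0.01. Since 6 of the 11 members highest at 2 h are transferases, of which 3 are mu class genes of 1 cluster read by shared _f_ probe sets, these are not separate observations.

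Second probe sets did not keep most of these courses. For 8 members the 2 brightest probe sets both passed the filter, and 1 of the 8 pairs (12.5%) had its highest value at the same hour, against 32.4% of 689 such pairs over all genes. The agreeing pair was that of Gstm5, whose second set read 2986.5, 3106.5, 2643 and 2979, while its 2 dimmer sets read 185, 502, 177 and 82.5 and 175, 238, 254 and 179. For Gstm1 the second set read 656.5, 504, 695 and 524.5, lowest at 2 h, where the brighter set was highest. The second Gstm3 set read 488, 392, 792 and 517, highest at 4 h, where the brighter set was lowest.

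Aldh2 was read by 3 probe sets. The set used was lowest at 4 h, as was a further one (361, 332, 64.4 and 317), but an _f_ set was highest at 4 h (210.0, 242, 334 and 217). Second sets read 837, 932, 1080.4 and 847 for Aldh7a1, 154, 184, 213.5 and 201 for Aldh3a2 and 500.2, 561, 433.5 and 635 for Cyp7b1. Of these, Cyp7b1 was lowest at 4 h on both sets and Aldh7a1 at 1 h on both. Each of these genes was highest at different hours on the set used and the second. The second Adh5 set, at 1441, 1256, 1421 and 1369, spanned 1.15-fold and was lowest at 2 h, where the set used was highest. A second Aldh1a1 set was under the filter (142.5, 92.2, 152 and 79.5) and was low at 2 and 6 h, where the set used was high. A second Gstm2 set was also under the filter (94.4, 85.9, 127.6 and 57.5). It was highest at 4 h, as was the Gstm2 set used, with a different lowest hour. All 10 members over 2-fold have 1 single-symbol probe set each, so their ranges and 4 h values have no such check.

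**Figure D5:**
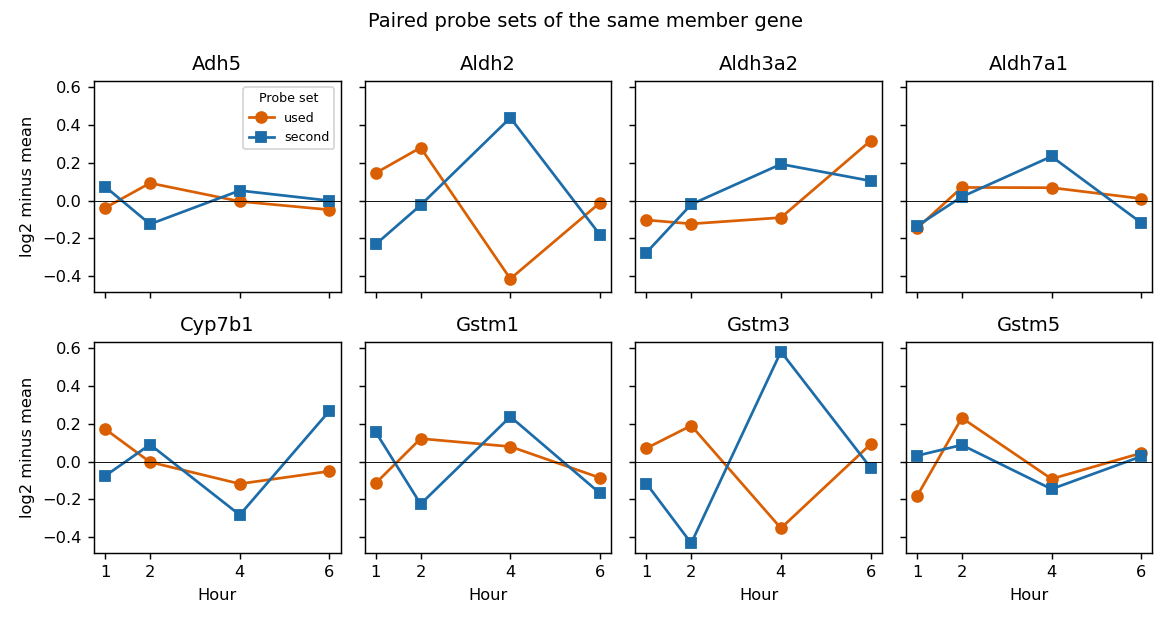
log2 intensity minus the probe set's own mean (vertical axis) against the hour (horizontal axis) for the 8 members with 2 probe sets past the filter, the brighter one used in the comparisons and the next brightest. The pairs of Aldh2 and Gstm3 run in opposite directions at 4 h, and the pair of Gstm5 shares its high point at 2 h.

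Other genes of xenobiotic and retinoid metabolism showed the same absence of called trends. Of 57 listed genes 45 had a probe set and 18 passed the filter, and 0 were called (limma adjusted p) or had an unadjusted p under 0.05. Their slopes were positive in 9 and negative in 9, with a median of 0.00 log2 per h. Over all genes past the filter 15% spanned over 2-fold, and of these 18 genes 3 did. These were Gclm, the regulatory subunit of glutathione synthesis, at 434, 361.6, 120.5 and 518, the retinoid X receptor gene Rxrb at 2333.5, 679, 2462 and 1514, and the sulfotransferase Sult4a1 at 227, 215, 451 and 341. The aldehyde reductase Akr1a1 read 7432.5, 6421, 6106.5 and 7652. Gclm was low at 4 h, and Sult4a1 was highest there. Rxrb was also highest at 4 h, but close to its 1 h value, and its 2 h value lay 3.03-fold under the average of the rest. Of the regulators, 4 of 8 passed the filter, among them Nfe2l2, the activator of antioxidant response genes. Nfe2l2 read 312.5, 318, 352 and 512 (slope 0.14 ± 0.08 log2 per h, SE, n = 4, unadjusted limma p 0.119). The other regulators past the filter had slopes from -0.03 to 0.04 log2 per h.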

How the data were processed

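Gene expression was measured on 4 one-colour oligonucleotide arrays of dentate gyrus RNA, 1 per hour. The deposited table gives 1 intensity per probe set on a linear scale for 12488 probe sets, and no label states how the authors made it, with scanner and software not given in the sources used here. Trimmed means (2% off each end) were 500.3 on every array, so values were used as deposited. Control probe sets (66), those with no symbol (1193) and those with several (396) were left out. The probe set of highest mean log2 stood for a gene, values under the 20th percentile (38.3) were raised to it, and genes under the 40th percentile of means were not tested, leaving 4951. Slopes on the hour were fitted with limma 3.58.1 in R 4.3.3 (eBayes with an intensity trend, 2 residual degrees of freedom), and the fit was tested on simulated data with planted slopes. The p-values measure scatter about a line over 4 arrays, whose number limits the precision. How many mice stand behind each array is not given in the sources used here. Alternatives covered scaling, floor, filter, probe set choice, variance model and leaving out each array.

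Members, lists and alternatives were chosen with earlier results of these data known. Named genes are all members past the filter. Values are given for those over 2-fold, the 3 steadiest and up to 4 more per family by mean. They are also given for members under the filter with 1 array over its intensity. Cyp2c29, Cyp2c70, Cyp4a10, Cyp4a14, Ugt8a, Nfe2l2 and the second Gstm2 probe set were added after their values were seen. Cell type lists are given as counts and sums, with genes named for choroid plexus and, for granule cells, Ncdn alone. All 71 members matched a RefSeq gene of GRCm38.p6 by identifier, used for names and neighbours.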

Additional observations from a re-analysis of the deposited data

Results flagged for a closer look

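In 3 of the 27 members past the filter a single array stood far from 3 close values on the log2 scale, measured as its gap to the nearest value over the whole range (Dixon's test at 95%). Chance flags about 1 in 20 genes, and among all 4951 genes past the filter 282 (5.7%) were so placed, 113 of them through the 4 h array. For Aldh3a2 the ratio was 0.925, from the 6 h array at 700.3 above values of 516 to 528; its second probe set was highest at 4 h. For Cyp4b1 it was 0.846, from the 4 h array at 194 below values of 369 to 415. For Gsto1 it was 0.839, from the 4 h array at 559 below values of 731 to 769.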

How the results depend on the processing

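Members with a called trend numbered 0 with all arrays and under each of the 12 alternatives, as did called genes of the pathway list. Over all genes the count was 0 except in fits to 3 arrays, which have 1 residual degree of freedom: it ran from 0 to 13 with an array left out (13 without the 1 h and 9 without the 6 h array). Without the 6 h array 8 of 27 members had an unadjusted limma p under 0.05. Of all 4951 genes 482 did, a smaller share. The smallest limma adjusted p of a member in that fit was 0.168. Of the 27 members 10 (37%) were over 2-fold. With no filter 35 of 71 (49.3%) were, and with the filter at the 60th percentile 1 of 14 (7.14%). With an array left out the count ran from 1 to 9. With the same genes kept, an alternative chosen after the values were seen, it ran from 2 to 9. For all genes the count was 741 of 4951 (15%). It was 2652 of 8251 (32.1%) under no filter and 211 of 3301 (6.39%) with the 60th percentile filter. With an array left out it ran from 367 to 518 (377 to 530 with the same genes kept). The filter alternatives change which genes are counted. With 50 added to every intensity in place of the floor, 7 members (25.9%) and 497 genes (10%) were over 2-fold. Of 282 fold ranges of single members recomputed, 252 moved by less than the SD over the arrays and 30 by more, 11 of these without the 4 h array. No paired analysis was possible because there is 1 group. Dim signal limits what can be said of the 44 members under the filter.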

Other observations

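Probe sets that carry several symbols were left out of all comparisons, and 8 of them name at least 1 gene of these families. 1 of them reads the Ugt1a genes, which share their last exons and encode the glucuronosyltransferases of bilirubin, steroids and drugs. It read 266.3, 309.4, 384.4 and 347.6 at 1, 2, 4 and 6 h. The shared probe set of Cyp2c50 and Cyp2c37 read 269.7, 120.5, 345.4 and 245.3, highest at 4 h, as were the single-symbol probe sets of Cyp2c29, Cyp2c38 and Cyp2c39 and not that of Cyp2c70, which was lowest there. The other 6 read between 5.5 and 135.9 at every hour. These probe sets cannot be ascribed to a single gene and were not tested.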
